A study of Mus musculus with 18 samples.

Results

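The genes described are 10 enzymes and subunits that write or erase methyl groups on histone H3, among 47069 Ensembl genes measured in single mouse oocytes. They were chosen by name and matched to the gene identifiers by symbol. Ehmt1, Ehmt2 and Setdb1 methylate lysine 9, Kmt2b and Kmt2d lysine 4 and Setd2 lysine 36. Ezh2 is the catalytic subunit and Eed the core subunit of Polycomb repressive complex 2 (PRC2), which methylates lysine 27. Kdm1a and Kdm1b are the lysine demethylases LSD1 and LSD2. All 10 were found, and 9 of them were among the 12037 genes that passed a filter on low counts. Ehmt2 did not pass it.

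The oocytes came from wild-type C57BL/6 mice of 6 weeks (6wk) or 12 months (12m). At each age 3 oocytes were at the germinal vesicle (GV) stage, arrested before meiosis resumes, and had no co-culture. A further 3 had been matured in vitro to metaphase II without co-culture (IVM-MII), and 3 had been matured in vitro to metaphase II with MSC (MSC-IVM-MII), an abbreviation the labels leave unexplained. This gave 6 groups and 18 libraries, each a SMART-seq2 library of the polyadenylated RNA of 1 oocyte, taken from a soft lysate after the nucleus had been spun down. The labels name no animal, litter or culture, so the 3 oocytes of a group counted as 1 sample and no test between groups was made. Values after ± are SDs over 3 oocytes and describe those oocytes only. Oocytes are numbered 1 to 3 within a group.

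Histone H3 lysine 9 and lysine 27 methylation mark silenced chromatin, while lysine 4 methylation marks promoters and enhancers and lysine 36 methylation marks transcribed gene bodies. During oocyte growth these marks are laid down together with DNA methylation. Kmt2b and Setd2 are needed for the lysine 4 and lysine 36 methylation of the growing oocyte, Kdm1b removes lysine 4 methylation at imprinted loci before they gain DNA methylation, and oocyte Eed carries lysine 27 methylation into the embryo. In fully grown oocytes transcription stops, and the stored mRNAs are later degraded or translated as meiosis resumes.

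Levels within a gene are given in CPM, counts scaled to a common library total. Differences are differences between 2 groups in mean log2(CPM + 1), and a difference of at least 1, which is 2-fold, is called higher or lower. Folds are ratios of mean CPM. Levels of different genes are compared only in TPM, which is per transcript length. Both scales are shares of a library, since RNA per oocyte was not measured.

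Libraries held between 1914072 and 9193559 counts. Of 12 oocyte markers, 12 were detected in each GV oocyte and 11 or 12 in each metaphase II oocyte. GV oocytes had 13046 to 16036 genes with a count and 0.917% to 3.70% of counts from mitochondrial genes, against 8612 to 13117 genes and 3.03% to 14.9% in metaphase II oocytes. GV 12m oocyte 3 held 14 of 16 cumulus and granulosa markers at a summed 1769 CPM, where the other 5 GV oocytes had 72.5 to 245 CPM and the metaphase II oocytes 0 to 80.0 CPM. Of the 16 markers only Ptx3 had no count in any oocyte. Mesenchymal stromal markers summed to 0 to 17.998 CPM in GV oocytes. In metaphase II oocytes of 6wk they summed to at most 1.35 CPM without and 0.421 CPM with co-culture. At 12m they summed to 0 to 0.847 CPM without and 0.415 to 7.31 CPM with co-culture. Thy1, Eng and Nt5e were at 0 in all 18. In IVM-MII and MSC-IVM-MII oocytes of 12m Dcn had 0 and 37 counts, Acta2 0 and 9, and Col1a2 4 and 0. The first IVM-MII and the first MSC-IVM-MII oocyte of 6wk share a title prefix with GV 6wk oocytes 1 and 2. These 2 metaphase II oocytes stood apart, with 3.22% and 3.03% mitochondrial counts against 7.66% to 11.7% in the other 4 of that age. What these prefixes mean is not stated.

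The 3′ ends of the members are shown first, because the libraries copied polyadenylated RNA and because in maturing oocytes mRNAs with a U-rich cytoplasmic polyadenylation element near the poly(A) signal can gain a longer tail. The letters TTTTAT or TTTTAAT, the DNA form of 2 common versions of that element, were searched for on the transcript strand in the last 100 bases of the longest coding transcript. The transcripts were those of GENCODE M21 on GRCm38. A match was found in 5 of 10 members and in 19.9% of 10276 genes. The following 30 bases, 5′ to 3′ on the transcript strand, lie in the 3′ UTR within the last exon, and the capitals mark the match.
Setdb1, chr3:95323553-95323582, minus strand: gacacagtcatgTTTTATttaacctttaat
Kmt2b, chr7:30568905-30568934, minus strand: ttctatgcacttTTTTATttaagagggcgg
Setd2, chr9:110618565-110618594, plus strand: ttttactgaactTTTTATgtaaaaaataaa
Eed, chr7:89954703-89954732, minus strand: aagctgtgttatTTTTATtgtgatggaaac
Kdm1a, chr4:136550544-136550573, minus strand: ataaaactttaaaataaTTTTATatgaaaa
Kdm1a held 2 matches, of which the one nearest the end is shown. In Ehmt1, Ehmt2, Kmt2d, Ezh2 and Kdm1b these letters are not in the window. AATAAA or ATTAAA, the poly(A) signal, lay in the last 40 bases of 9 of 10 members, all but Kdm1b, and of 77.7% of the 10276 genes. A match is a description of the sequence and not a measured site.

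Across maturation, Ehmt1, Setdb1 and Ezh2 were higher in metaphase II than in GV oocytes at both ages, with and without co-culture. In IVM-MII against GV oocytes of 6wk, 4 of 10 members were higher and 0 lower, where 16.7% of the 12037 genes were higher and 39.2% lower, 55.9% in all. Ehmt1, Setdb1, Ezh2 and Kdm1a were the 4. In IVM-MII against GV oocytes of 12m, 4 were higher (Ehmt1, Setdb1, Kmt2d and Ezh2) and 1 lower (Ehmt2), against 16.1% and 39% of all genes, 55% together. In MSC-IVM-MII against GV oocytes the same 4 genes as without co-culture were higher at each age. At 6wk no member was lower, against 21.4% of genes higher and 35.2% lower (56.6% in all), and at 12m Ehmt2 was lower, against 16.7% and 41.7% (58.4% in all). The median difference over the 10 members was 0.45 and 0.43 for IVM-MII at 6wk and 12m and 0.60 and 0.33 for MSC-IVM-MII, where the medians over all measured genes were −0.52, −0.52, −0.29 and −0.60. The 2 comparisons of an age share their GV oocytes. The mitochondrial share and the number of genes detected moved with stage, and their part in these differences was not tested.

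**Figure D1:**
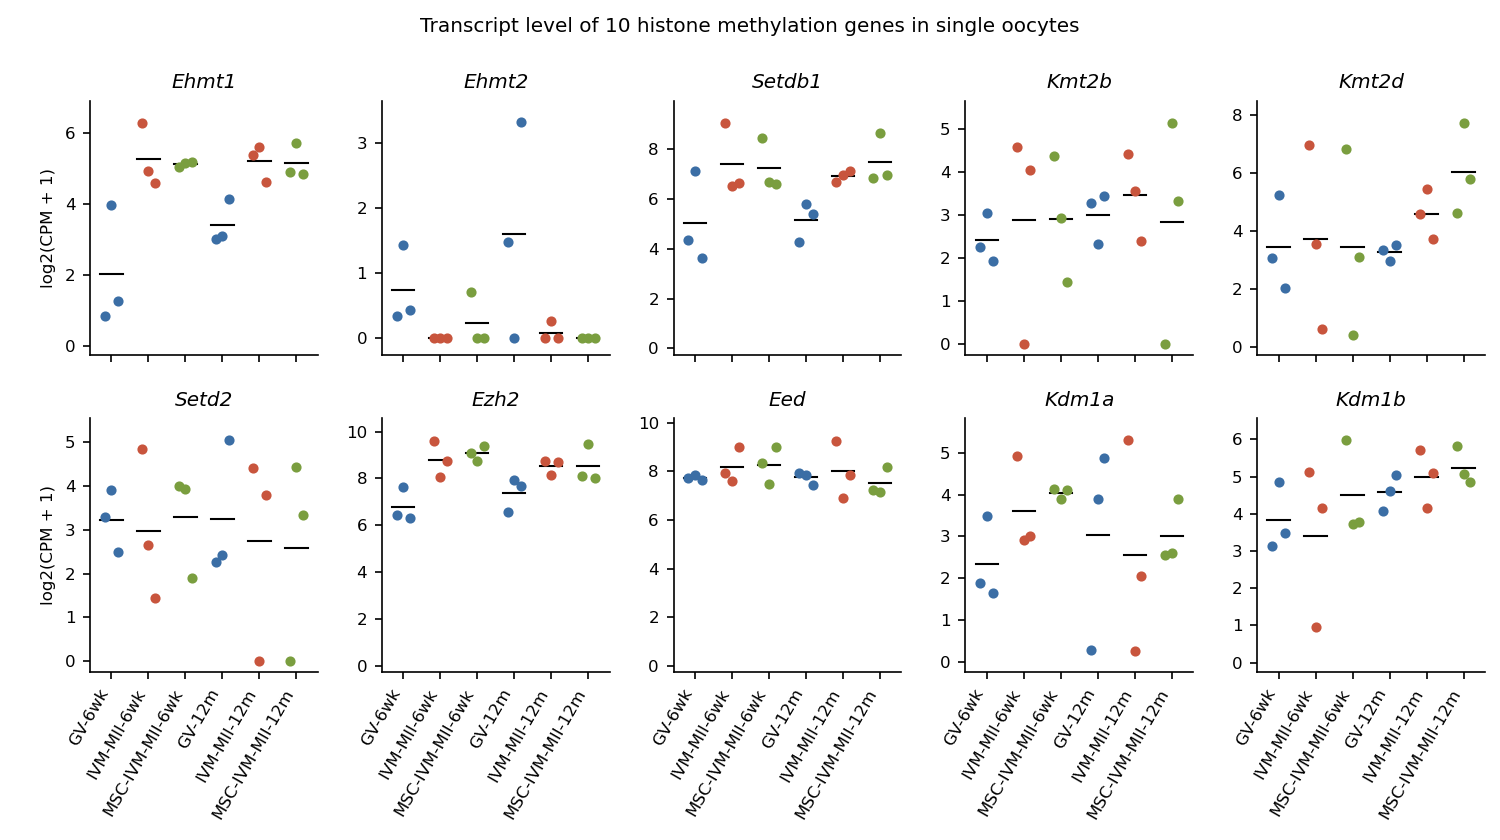
Level of each member in each oocyte as log2(CPM + 1), with oocytes 1 to 3 from left to right in each group and the group mean as a bar; blue is GV, red IVM-MII and green MSC-IVM-MII. Ehmt1 and Ezh2 were higher in each of the 12 metaphase II oocytes than in any of the 6 GV oocytes, whereas Eed overlapped throughout.

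The H3K9 methyltransferases diverged. Ehmt1 (ENSMUSG00000036893; chromosome 2, 24789928 to 24919614, minus strand), which encodes GLP, was at 0.804, 14.8 and 1.42 CPM in GV oocytes of 6wk and 7.11, 7.52 and 16.8 CPM in those of 12m. In IVM-MII oocytes it was at 77.3, 29.8 and 23.3 CPM at 6wk and 41.3, 48.0 and 23.7 CPM at 12m. With co-culture it was at 32.5, 35.0 and 35.5 CPM at 6wk and 28.9, 52.1 and 27.8 CPM at 12m. The lowest metaphase II oocyte, at 23.3 CPM, thus lay above the highest GV oocyte, at 16.8 CPM. The difference was 3.24 for IVM-MII at 6wk (7.66-fold, 43.5 ± 29.5 against 5.67 ± 7.91 CPM) and 1.79 at 12m (3.60-fold, 37.7 ± 12.5 against 10.5 ± 5.46 CPM). With co-culture it was 3.11 (6.05-fold) and 1.74 (3.47-fold). The GV value of 6wk rests on 68 counts in all (exact Poisson 95% interval 52.8 to 86.2), of which 61 were in oocyte 2.

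Setdb1 (ENSMUSG00000015697; chromosome 3, 95323525 to 95357202, minus strand) encodes the methyltransferase that KRAB zinc finger proteins bring to retroelements through Trim28. GV oocytes had 19.6, 139.7 and 11.3 CPM at 6wk and 18.4, 54.7 and 41.4 CPM at 12m. IVM-MII oocytes had 529, 92.4 and 99.1 CPM at 6wk and 101.4, 126 and 138 CPM at 12m. MSC-IVM-MII oocytes had 355, 104 and 97.5 CPM at 6wk and 114, 405 and 124 CPM at 12m. Of the GV oocytes only oocyte 2 of 6wk reached the range of the metaphase II oocytes, and at 12m the groups did not overlap. Differences were 2.37 (4.22-fold) and 1.77 (3.19-fold) for IVM-MII and 2.23 (3.26-fold) and 2.33 (5.62-fold) for MSC-IVM-MII, at 6wk and 12m. Without IVM-MII 6wk oocyte 1 the first of these was 1.55. The annotated Setdb1 locus overlaps Cers2 on the opposite strand, which had 2747 counts against 12685 of Setdb1, and the strand setting of the counting is not given in the sources used here. The bases shown for Setdb1 lie within that overlap.

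Ehmt2 (ENSMUSG00000013787; chromosome 17, 34898469 to 34914052, plus strand), whose product G9a pairs with GLP, was barely detected. It had 80 counts over the 18 oocytes, 59 of them in GV 12m oocyte 3 (8.91 CPM). The other GV oocytes had 1, 7 and 1 counts at 6wk and 8 and 0 at 12m. Metaphase II oocytes had 3 counts in MSC-IVM-MII 6wk oocyte 1, 1 count in IVM-MII 12m oocyte 2 and 0 in the other 10. For IVM-MII 6wk and MSC-IVM-MII 12m, each with 0 counts in 3 oocytes, the exact Poisson 95% interval reaches 3.7 counts. The differences of −1.51 and −1.59 from GV at 12m became −0.65 and −0.74 without GV oocyte 3, which is the oocyte with granulosa transcripts. The 2 genes whose levels followed Ehmt2 most closely were Gja1 (r = 0.77) and Inha (r = 0.75), both on the granulosa marker list, and without that oocyte r was 0.41 and 0.58 over 17 oocytes. These coefficients, like those below, are Pearson's r of log2(CPM + 1) over the 18 oocytes, which share stage and depth, and are a description. Ehmt1 stood above Ehmt2 in TPM in each of the 18 oocytes.

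The tables also give each gene a length per oocyte, which in the RSEM layout is the mean length of its transcripts weighted by their estimated abundance. For Setdb1 it ran from 2531 to 2773 bases in the 12 metaphase II oocytes and from 2832 to 4594 bases in the 6 GV oocytes, so that the stages did not overlap. The 3 protein-coding transcripts of Setdb1 in GENCODE M21 have 4573, 4622 and 4658 bases. Setdb1-205, annotated as a retained-intron transcript of 12 exons from 95339145 to 95357156, covers the 5′ part of the gene in 2440 bases. GV 12m oocyte 3 had the longest value, 4594 bases, and without it the GV oocytes ranged from 2832 to 3575 bases. Ehmt1 had lengths of 992 to 1728 bases in the 16 oocytes with at least 10 counts, where its 6 coding transcripts over 3000 bases have 4539 to 5953 bases. Ehmt1-213, annotated as protein-coding with 6 exons at the 5′ end of the gene (24863296 to 24919607), has 1121 bases. Which transcripts the reads came from was not tested, since the tables hold no values per transcript. Counts and CPM do not use these lengths, while TPM does, and the TPM of both genes follows from them.

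**Figure D2:**
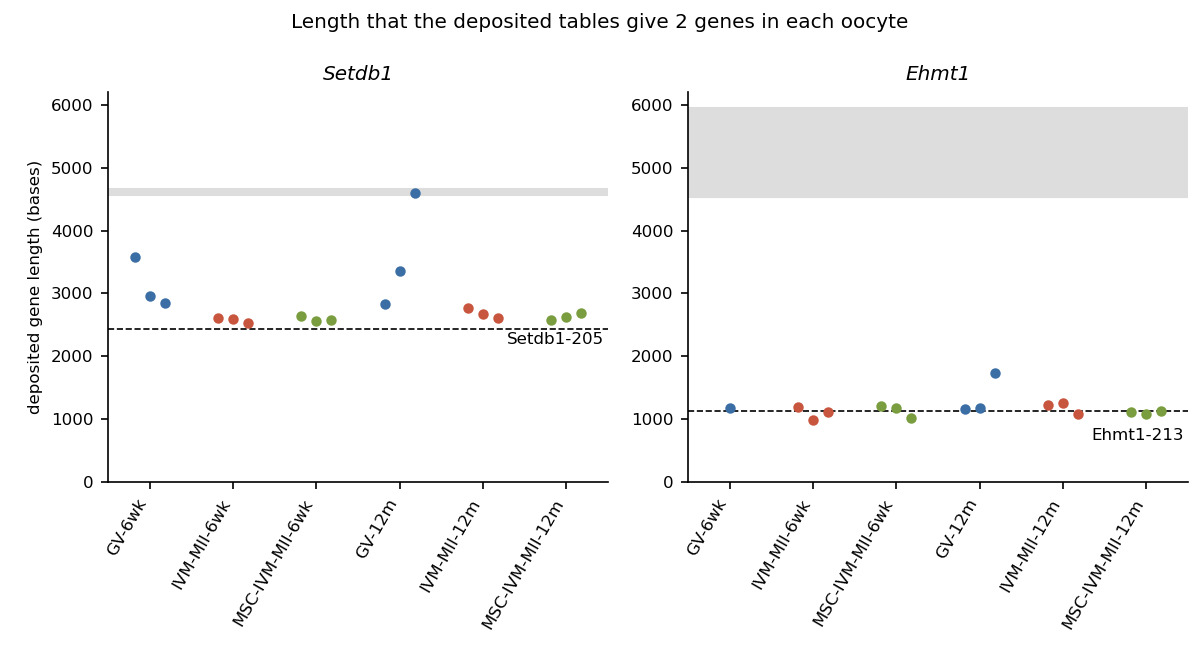
Length given in the deposited tables for Setdb1 and Ehmt1 in each oocyte with at least 10 counts of the gene (bases), by group, in the same colours as the levels. Grey bands span the annotated coding transcripts over 3000 bases and dashed lines mark the 2440 bases of Setdb1-205 and the 1121 bases of Ehmt1-213; Setdb1 sits at 2531 to 2773 bases in metaphase II oocytes and higher in GV oocytes.

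PRC2 subunits separated as well. Ezh2 (ENSMUSG00000029687; chromosome 6, 47530139 to 47595341, minus strand) was at 86.1, 197 and 78.9 CPM in GV oocytes of 6wk and 95.3, 246 and 201 CPM in those of 12m. IVM-MII oocytes had 781, 267 and 423 CPM at 6wk and 431, 285 and 411 CPM at 12m, and MSC-IVM-MII oocytes 543, 433 and 666 CPM and 276, 709 and 257 CPM. Each of the 12 metaphase II oocytes was above each of the 6 GV oocytes, the closest being 257 and 246 CPM. Differences were 2.01 (4.07-fold) and 2.28 (4.54-fold) at 6wk without and with co-culture, and 1.14 (2.08-fold) and 1.13 (2.29-fold) at 12m. The 12m calls ended without GV 12m oocyte 1, at 0.73 for both. They also ended between oocytes of the same title prefix, at 0.77 and 0.62. That comparison leaves out GV 12m oocyte 1 as well, since no other oocyte has its prefix, and is not a separate check. Without MSC-IVM-MII 12m oocyte 2 the co-culture value was 0.66, and with DESeq2 size factors the value without co-culture was 0.91.

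Eed (ENSMUSG00000030619; chromosome 7, 89954654 to 89980983, minus strand), which reads methylated lysine 27 and stimulates the enzyme, was within 2-fold in all 9 comparisons of all oocytes. With 1 oocyte left out it reached −1.05 in MSC-IVM-MII against IVM-MII oocytes of 12m. Between ages in MSC-IVM-MII oocytes it reached −1.17. GV oocytes held it at 214, 228 and 200.2 CPM at 6wk and 246, 231 and 175 CPM at 12m. Metaphase II oocytes were wider, from 118 CPM in IVM-MII 12m oocyte 2 to 614 CPM in oocyte 1 of the same group. Its maturation differences were 0.44, 0.25, 0.54 and −0.24, in the order IVM-MII 6wk, IVM-MII 12m, MSC-IVM-MII 6wk and MSC-IVM-MII 12m. The deposited length of Eed was 2065 bases in every oocyte, where its longest coding transcript has 2067. That of Ezh2 ran from 1407 to 1970 bases, where its longest coding transcript has 2787. TPM uses these lengths, so the ratio below depends on them, and their part in it was not tested. The ratio of Ezh2 to Eed in TPM was 0.485, 0.952 and 0.497 in GV oocytes of 6wk and 0.612, 1.32 and 1.55 in those of 12m. It was 3.38, 2.08 and 1.24 in IVM-MII 6wk and 1.86, 2.80 and 1.39 in MSC-IVM-MII 6wk oocytes, above each GV oocyte of that age. At 12m it was 0.954, 3.36 and 2.37 without and 2.47, 6.16 and 1.24 with co-culture, and both groups overlapped the GV range.

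**Figure D3:**
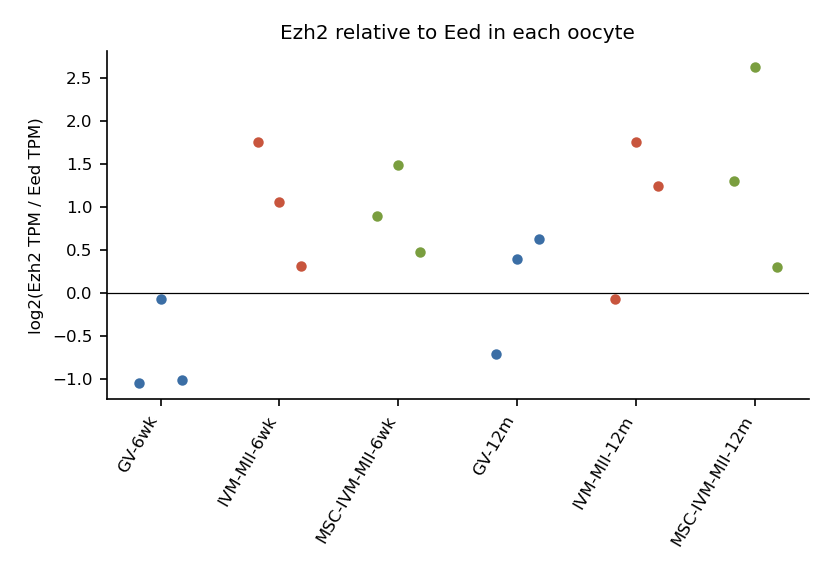
Ratio of Ezh2 to Eed in each oocyte from deposited TPM, on a log2 axis, by group in the same colours as the levels; 0 marks equal TPM. All 3 GV oocytes of 6wk lie below 0 and 11 of the 12 metaphase II oocytes above it.

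Among 8 other PRC2 genes (all of them measured), 5 were higher and 0 lower in IVM-MII against GV oocytes at 6wk, and 5 higher and 1 lower at 12m. With co-culture 6 were higher at each age, with 0 lower at 6wk and 1 at 12m. Of all genes, 16.7% were higher and 39.2% lower without co-culture at 6wk, and 16.1% and 39% at 12m. With it the shares were 21.4% and 35.2% at 6wk and 16.7% and 41.7% at 12m. The median differences of the 8 were 1.66, 1.40, 1.59 and 1.54 in the order used for Eed. Over all measured genes they were −0.52, −0.52, −0.29 and −0.60. Suz12, Rbbp7, Aebp2 and Mtf2 were higher in all 4 comparisons. Suz12, the remaining core subunit, had a median of 9.03 CPM in GV and 44.1 CPM in metaphase II oocytes. The stages overlapped, with ranges of 1.77 to 42.5 CPM and 9.61 to 133 CPM. Rbbp7, a histone-binding subunit, had medians of 1282 and 4483 CPM, with overlapping ranges of 417 to 2180 CPM and 1574 to 7818 CPM. Its paralog Rbbp4 was lower at 12m, from 31.7 ± 11.5 CPM in GV to 8.30 ± 2.78 CPM in IVM-MII and 9.23 ± 3.43 CPM in MSC-IVM-MII oocytes. Phf1, a Polycomb-like accessory protein, was 5.29-fold higher in MSC-IVM-MII than in GV oocytes of 12m (127 ± 9.94 against 24.0 ± 10.6 CPM). Ezh1, the other catalytic subunit, was listed with the methyltransferases and was 7.12-fold higher in MSC-IVM-MII than in GV oocytes of 6wk (45.7 ± 28.8 against 6.41 ± 4.96 CPM).

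Of the H3K4 methyltransferases, Kmt2d passed 2-fold at 12m across maturation when all oocytes were used. Kmt2d (ENSMUSG00000048154; chromosome 15, 98831669 to 98871204, minus strand), an enhancer enzyme, was at 7.51, 37.6 and 3.18 CPM in GV, 125, 10.8 and 0.569 CPM in IVM-MII and 115, 0.333 and 7.58 CPM in MSC-IVM-MII oocytes of 6wk. At 12m the values were 9.33, 6.90 and 10.4 CPM in GV, 23.4, 42.6 and 12.3 CPM in IVM-MII and 24.0, 211 and 55.3 CPM in MSC-IVM-MII oocytes. The high values of 6wk were in oocyte 1 of both metaphase II groups, which share a prefix, while at 12m neither metaphase II group overlapped the GV group. The 12m differences were 1.31 (2.94-fold) without and 2.77 (10.9-fold) with co-culture. The first fell under the 2-fold line without IVM-MII 12m oocyte 2 (0.88) and in TPM (0.54), and the second was 1.70 in TPM and 1.94 without MSC-IVM-MII 12m oocyte 2. At 6wk the differences were 0.26 and −0.02. Without the metaphase II oocytes of that prefix, which GV 6wk oocytes 1 and 2 also have, they were −1.37 and −1.72. Within title prefixes they were 1.42 and 1.18, so that the call depended on the oocytes compared.

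Kmt2b (ENSMUSG00000006307; chromosome 7, 30568858 to 30588726, minus strand), the enzyme that lays lysine 4 methylation down in growing oocytes, was low. It ranged from 2.83 to 9.82 CPM in the 6 GV oocytes and from 0 to 34.3 CPM in the 12 metaphase II oocytes, 2 of which had no count. No group difference over all oocytes reached 2-fold, the maturation differences being 0.47, 0.44, 0.50 and −0.19. The first was 1.91 without IVM-MII 6wk oocyte 2, which had no count, −0.38 without oocyte 1 of that group and 1.01 within title prefixes. The third was 1.24 without MSC-IVM-MII 6wk oocyte 3, and the last ran from −1.34 to 1.23 with 1 oocyte left out. Among 12 partners of the MLL complexes, Psip1, the chromatin tether of Menin, was 6.32-fold higher in IVM-MII than in GV oocytes of 6wk (261 ± 132 against 41.3 ± 36.3 CPM). Dpy30, a core subunit, was 3.63-fold higher at 12m (870.0 ± 151 against 240 ± 84.2 CPM). Ash2l, another core subunit, was lower in all 4 maturation comparisons, at 5.51 ± 8.12 against 26.8 ± 14.5 CPM at 6wk and 5.56 ± 6.79 against 21.7 ± 12.2 CPM at 12m without co-culture, with overlapping oocytes in both. Over the list 2 were higher and 4 lower in IVM-MII at 6wk, 3 and 3 at 12m, 5 and 3 in MSC-IVM-MII at 6wk and 6 and 3 at 12m. In the same order 16.7%, 16.1%, 21.4% and 16.7% of all genes were higher. The shares lower were 39.2%, 39%, 35.2% and 41.7%.

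Setd2 (ENSMUSG00000044791; chromosome 9, 110532597 to 110618633, plus strand), the main enzyme of H3K36 trimethylation, was within 2-fold in all 9 comparisons of all oocytes, but past it in some when 1 oocyte was left out. GV oocytes had 8.85, 14.1 and 4.60 CPM at 6wk and 3.78, 4.39 and 32.0 CPM at 12m, and metaphase II oocytes ranged from 0 to 27.6 CPM. The value of 32.0 CPM was in GV 12m oocyte 3. At 12m the difference from GV was −0.51 without and −0.65 with co-culture, and no direction can be read from either. Without GV 12m oocyte 3 they were 0.39 and 0.25. With 1 oocyte left out they ran from −1.34 to 0.86 and from −1.58 to 0.64. The highest of these came without IVM-MII 12m oocyte 2 and MSC-IVM-MII 12m oocyte 1, each with no Setd2 count. Within title prefixes the co-culture value was −1.80, with GV 12m oocyte 3 as the only GV oocyte of its prefix. At 6wk the IVM-MII difference of −0.26 became −1.19 without IVM-MII 6wk oocyte 1.

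**Figure D4:**
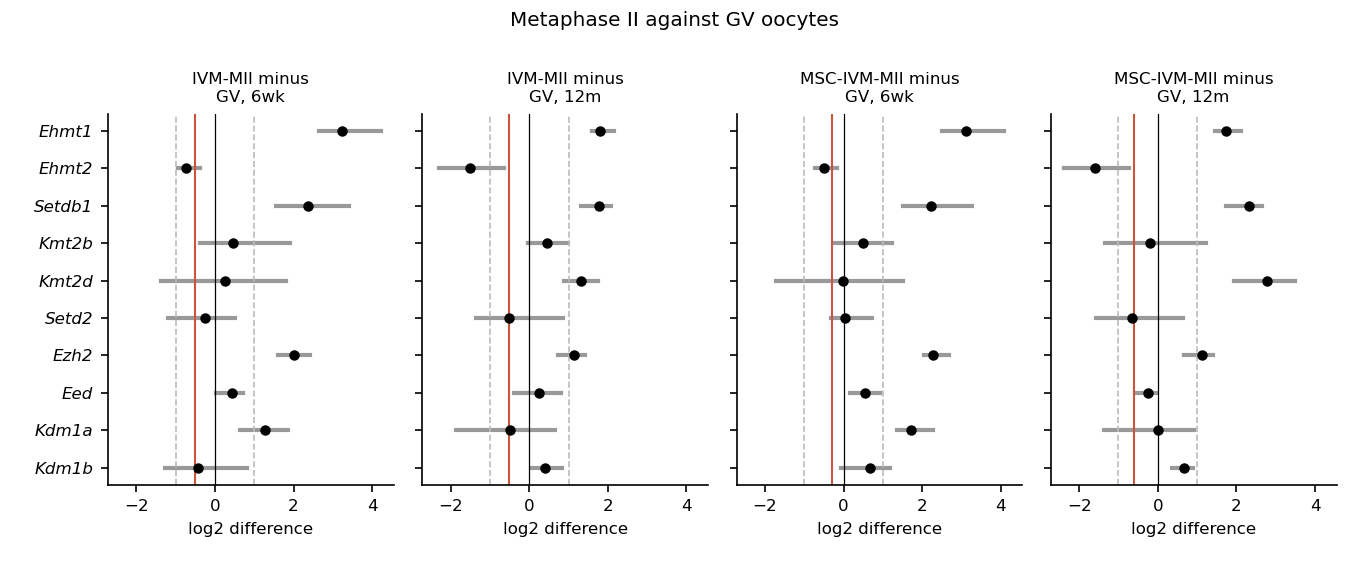
Difference of each member between metaphase II and GV oocytes (log2 of CPM + 1), as a point, with the range obtained by leaving out each oocyte in turn as a grey line; dashed lines mark 2-fold and the red line the median over the 12037 measured genes. The ranges of Ehmt1 and Setdb1 stay to the right of the 2-fold line in all 4 panels, and those of Ezh2 do so at 6wk.

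The demethylases were weakly expressed. Kdm1a (ENSMUSG00000036940; chromosome 4, 136550540 to 136602723, minus strand) was at 2.68, 10.2 and 2.12 CPM in GV, 29.4, 6.51 and 7.12 CPM in IVM-MII and 16.6, 14.0 and 16.2 CPM in MSC-IVM-MII oocytes of 6wk. At 12m it was at 0.222, 13.9 and 28.7 CPM in GV, 38.6, 0.200 and 3.18 CPM in IVM-MII and 4.90, 5.12 and 13.8 CPM in MSC-IVM-MII oocytes. Only the co-cultured 6wk oocytes were both tight and above all GV oocytes of their age, with a difference of 1.72 (3.12-fold). The difference of IVM-MII from GV was 1.28 at 6wk and 0.63 without IVM-MII 6wk oocyte 1, and 0.94 without GV 6wk oocyte 3. At 12m the differences were −0.48 without and −0.01 with co-culture, and neither was stable. With 1 oocyte left out they ran from −1.86 to 0.66 and from −1.37 to 0.93, the 0.93 being without GV 12m oocyte 3. Within title prefixes they were −1.97 and −1.49, past 2-fold lower. There GV 12m oocyte 3, the oocyte with granulosa transcripts, is the only GV oocyte of its prefix. Kdm1a overlaps Luzp1 on the opposite strand, which had 13095 counts against 1159, so reads of the 2 cannot be told apart there if the counting ignored strand. The bases shown for Kdm1a lie within that overlap.

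Kdm1b (ENSMUSG00000038080; chromosome 13, 47043499 to 47085279, plus strand) ranged from 7.77 to 32.0 CPM in GV and from 0.930 to 61.7 CPM in metaphase II oocytes. Its maturation differences were −0.42, 0.41, 0.67 and 0.66, all within 2-fold. The first was −1.28 without IVM-MII 6wk oocyte 1, and the third was 1.12 within title prefixes and 1.18 without GV 6wk oocyte 2. It overlaps Tpmt and Dek on the opposite strand, with 11651 and 27764 counts against its 2388. In TPM Kdm1b exceeded Kdm1a in all 6 GV oocytes, in 1 of 3 IVM-MII and 2 of 3 MSC-IVM-MII oocytes of 6wk, and in all 6 metaphase II oocytes of 12m. Among 7 measured of 8 partners of LSD1 and LSD2, at most 2 were higher and 2 lower in any maturation comparison. Of all genes, 16.1% to 21.4% were higher and 35.2% to 41.7% lower in these comparisons. Rcor1, the LSD1 corepressor, was 4.45-fold higher in MSC-IVM-MII than in GV oocytes of 12m (36.1 ± 28.9 against 8.12 ± 9.43 CPM, overlapping).

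In order of mean TPM, GV oocytes had Eed (109.7), Ezh2 (104.6), Setdb1 (17.0), Ehmt1 (8.28), Kdm1b (7.18), Setd2 (6.65), Kdm1a (4.27), Ehmt2 (1.59), Kmt2b (1.06) and Kmt2d (0.678). In metaphase II oocytes the order was Ezh2 (315), Eed (158), Setdb1 (86.2), Ehmt1 (43.5), Kdm1b (10.4), Kdm1a (5.18), Setd2 (4.29), Kmt2b (2.92), Kmt2d (2.86) and Ehmt2 (0.0900). Eed and Ezh2 exchanged first place, in a scale that uses the deposited lengths of 1407 to 1970 bases for Ezh2 and 2065 bases for Eed. Neighbours in either order overlapped in their ranges over oocytes, except that in metaphase II oocytes Ehmt1 (25.5 to 105.1 TPM) lay above Kdm1b (0.920 to 22.6 TPM). Eed made up 42.0% and Ezh2 40.1% of the members' summed TPM in GV oocytes, against 25.2% and 50.1% in metaphase II oocytes.

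Other genes of histone methylation, taken from lists of the enzyme families, did not share one direction. Of 23 measured lysine methyltransferases out of 26, 5 were higher and 7 lower in IVM-MII against GV oocytes at 6wk and 2 and 6 at 12m. With co-culture the numbers were 8 and 6 at 6wk and 5 and 9 at 12m. Of all genes, 16.7% were higher and 39.2% lower without co-culture at 6wk, and 16.1% and 39% at 12m. With it the shares were 21.4% and 35.2% at 6wk and 16.7% and 41.7% at 12m. The same shares stand beside the demethylase counts below. Suv39h2, an enzyme of H3K9 trimethylation, was 6.34-fold higher in IVM-MII oocytes of 6wk (241 ± 93.3 against 38.1 ± 17.4 CPM) and 3.48-fold higher at 12m (101.2 ± 8.78 against 29.1 ± 18.8 CPM), without overlap. Setmar, a SET domain protein, was 4.01-fold lower at 6wk (7.57 ± 11.2 against 30.3 ± 7.75 CPM). Of 17 measured demethylases out of 22, 3 were higher and 3 lower at 6wk and 2 and 4 at 12m in IVM-MII. With co-culture the numbers were 5 and 3 at 6wk and 3 and 4 at 12m. The 3 lower at 6wk in IVM-MII include Kdm5d, a Y-linked gene whose counts are described at the end. Riox2, a ribosomal oxygenase, was 3.14-fold lower in IVM-MII oocytes of 12m (13.4 ± 7.60 against 42.0 ± 5.20 CPM).

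Of 8 measured out of 9 partners and readers of H3K9 methylation, 5 were higher and 0 lower at 6wk in both maturation comparisons. Of all genes 16.7% were higher and 39.2% lower without co-culture, and 21.4% and 35.2% with it. At 12m 3 were higher and 1 lower without co-culture and 3 and 2 with it, beside 16.1% and 39%, and 16.7% and 41.7%, of all genes. Mphosph8, a subunit of the HUSH silencing complex, had the largest higher difference of the list in each comparison. It was 4.68-fold higher at 6wk without co-culture (532 ± 283 against 114 ± 110 CPM), and 6.21-fold and 8.02-fold higher at 12m without and with it, with all metaphase II oocytes above the GV oocytes of their age. Trim28, the corepressor that recruits Setdb1, had a 6.32-fold lower mean in IVM-MII oocytes of 12m than in the GV oocytes of that age (8.46 ± 4.22 against 53.5 ± 48.4 CPM). At 6wk its mean was not lower, at 31.1 ± 42.2 CPM in IVM-MII and 18.6 ± 8.44 CPM in GV oocytes. Of the arginine methyltransferases, 4 of 9 listed were measured. Prmt7 was lower in all 4 comparisons, with 6 counts in IVM-MII 6wk against 943 in GV 6wk oocytes and 0 in MSC-IVM-MII 12m against 950 in GV 12m oocytes, while Prmt2 was 3.32-fold higher in IVM-MII oocytes of 12m (211 ± 29.6 against 63.3 ± 13.1 CPM).

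With co-culture 1 of 10 members passed 2-fold at each age, no more than the share of all genes. In MSC-IVM-MII against IVM-MII oocytes of 6wk, 1 of 10 was higher (Kdm1b) and 0 lower, against 16.2% and 5.22% of all genes, or 21.5% either way, a share of members near the background. The difference of Kdm1b was 1.09, from 33.9, 0.930 and 16.8 CPM without to 61.7, 12.3 and 12.7 CPM with co-culture, with overlapping oocytes. It turned to −0.14 without IVM-MII 6wk oocyte 2, which had 3 counts, and was 0.35 without MSC-IVM-MII 6wk oocyte 1 and 1.95 without IVM-MII 6wk oocyte 1. At 12m, 1 of 10 was higher (Kmt2d) and 0 lower, against 10.3% and 15.2%, or 25.4% either way. The difference of Kmt2d was 1.47 (3.71-fold, 96.8 ± 100.2 against 26.1 ± 15.3 CPM) and was 0.63 without MSC-IVM-MII 12m oocyte 2, the oocyte at 211 CPM. For Ehmt1 the differences were −0.14 and −0.05 and for Ezh2 0.27 and 0.00, at 6wk and 12m, and Setdb1 had −0.14 and 0.57.

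Between ages 1, 2 and 2 members passed 2-fold in GV, IVM-MII and MSC-IVM-MII oocytes. The oocytes of the 2 ages share no title prefix, so prefix and age cannot be told apart. Library size also went with age in GV oocytes, with at most 3895017 counts at 6wk and at least 4679473 at 12m. In IVM-MII oocytes these limits were 4271400 and 4583562 counts, while MSC-IVM-MII libraries of the 2 ages overlapped. The part of library size was not tested. In GV oocytes 1 of 10 members was higher at 12m (Ehmt1) and 0 lower, against 9.45% and 4.27% of all genes, or 13.7% either way. Its difference of 1.39 was 0.79 without GV 6wk oocyte 1, 2.36 without GV 6wk oocyte 2 and 0.80 in TPM, and the oocytes of the 2 ages overlapped. In IVM-MII oocytes Kdm1b was higher (1.58) and Kdm1a lower (−1.07), 1 of 10 each way against 18% and 9.08%, or 27.1% together. Kdm1b was 0.35 without IVM-MII 6wk oocyte 2 and 2.44 without IVM-MII 6wk oocyte 1. The mean of Kdm1a in CPM hardly differed (14.0 ± 21.4 at 12m and 14.4 ± 13.1 at 6wk). Its log-scale difference turned to 0.07 without IVM-MII 12m oocyte 2, which had 1 count, and was −2.46 without IVM-MII 12m oocyte 1 and −0.42 without IVM-MII 6wk oocyte 1.

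In MSC-IVM-MII oocytes Kmt2d was higher at 12m (2.61) and Kdm1a lower (−1.03), 1 of 10 each way against 7.73% and 15.2%, or 22.9% together. All 3 co-cultured oocytes of 12m had less Kdm1a than any of 6wk, 7.95 ± 5.09 against 15.6 ± 1.41 CPM (1.96-fold lower), on 118 and 168 counts. That difference fell short of 2-fold with library totals (−0.92), with DESeq2 size factors (−0.93) and without any 1 of MSC-IVM-MII 12m oocytes 1 and 2 and MSC-IVM-MII 6wk oocyte 1 (−0.98 to −0.80). Kmt2d was 4.30 without MSC-IVM-MII 6wk oocyte 1, 1.08 without oocyte 2 of that group and 1.00 in TPM. Of the partner lists, Rbbp7 was 3.09-fold lower at 12m in co-cultured oocytes (2192 ± 631 against 6781 ± 902 CPM), without overlap. Whether age acts differently with and without co-culture was not tested.

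**Figure D5:**
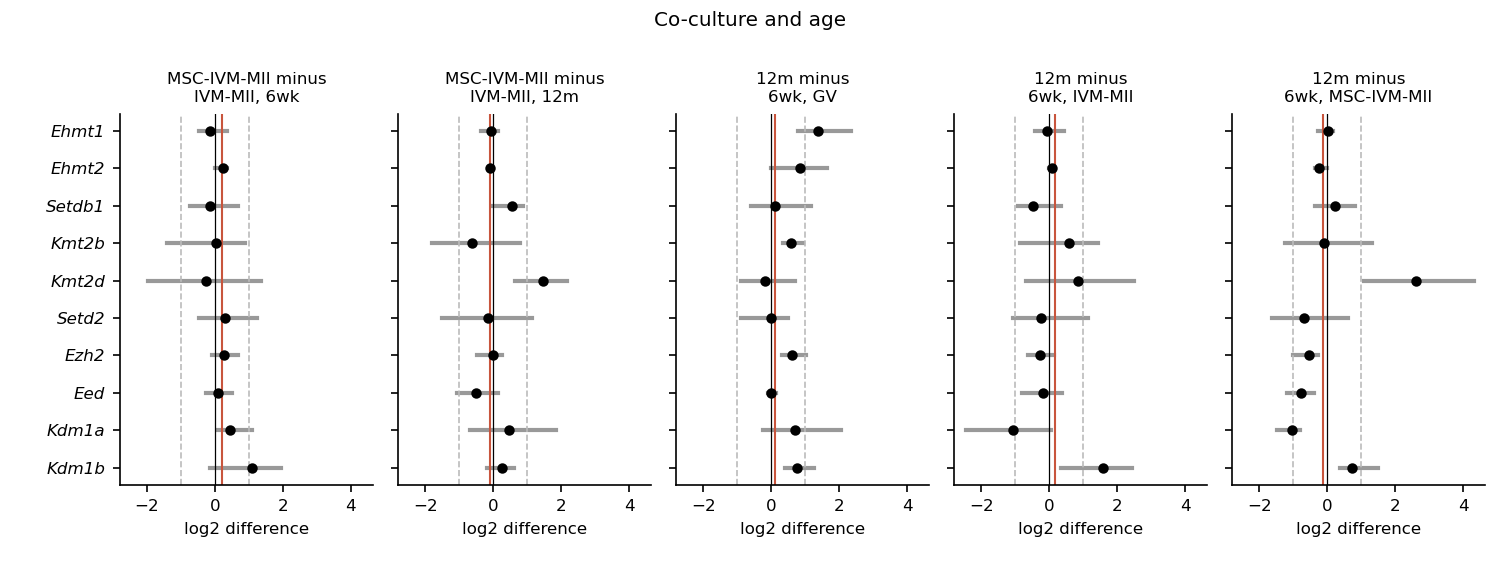
Difference of each member between co-cultured and IVM-MII oocytes and between ages (log2 of CPM + 1), drawn as for maturation, with the range over oocytes left out in turn. Most points lie between the dashed 2-fold lines, and the grey lines of Kdm1b at 6wk and Kdm1a in IVM-MII oocytes cross 0.

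In several groups 1 oocyte held the highest level of most members. GV 6wk oocyte 2 held the highest CPM of its group for 10 of 10 members, IVM-MII 6wk oocyte 1 for 8 and MSC-IVM-MII 6wk oocyte 1 and GV 12m oocyte 3 for 7 each. Those of 6wk all have the same title prefix. The summed CPM of the 10 was 315 to 678 in GV and 609 to 1871 in metaphase II oocytes. Ehmt1, Setdb1 and Ezh2 went together over the 18 oocytes, with r of 0.86 for Ehmt1 and Setdb1, 0.88 for Ehmt1 and Ezh2 and 0.89 for Setdb1 and Ezh2. Within the 12 metaphase II oocytes these were 0.65, 0.55 and 0.66. Eed followed none of the 3, with r of 0.08, 0.03 and 0.26 over the 18 oocytes.

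By the rule of the 2 highest r among well expressed genes, Setdb1 was nearest to Ccdc186 (0.97) and to the de novo DNA methyltransferase Dnmt3a (0.96), which kept 0.95 within the 12 metaphase II oocytes. Ezh2 was nearest to Tax1bp1 (0.98) and Fam13c (0.97), and Ehmt1 to Rbm27 (0.96) and the splicing factor Srrm1 (0.95). Kmt2b was nearest to the demethylase Kdm7a (0.84) and to Wdr5 (0.84), a core subunit of the MLL complexes. Kmt2d was near Gcnt4 (0.83). Setd2 had Hbs1l (0.82) and Scaf11 (0.80), Eed Xrcc4 (0.74) and Thoc7 (0.72), Kdm1a Champ1 (0.77) and Azin1 (0.77), and Kdm1b Wdr36 (0.89) and Heatr6 (0.87). The members with the match printed above were Setdb1, higher in all 4 maturation comparisons, Kdm1a, higher at 6wk, and Kmt2b, Setd2 and Eed, within 2-fold in all 4. Of the members without it, Ehmt1 and Ezh2 were higher in all 4, and Kmt2d was higher and Ehmt2 lower at 12m. Kdm1b, also without it, was within 2-fold in all 4. Whether the match bears on these differences was not tested.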

How the data were processed

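Expected counts and TPM were used as deposited by the authors, per the file headers in RSEM's layout, with 1 table per oocyte. The deposited gene length (bases, not a normalized value) served for Setdb1, Ehmt1, Ezh2 and Eed. Per the submitters' processing notes the build was GRCm38.p5 (mm10) and the tools included TopHat2 2.1.1, Cufflinks, Trim Galore 0.4.5 and FastQC 0.11.8. Which tool made the counts, and on which annotation, is not given in the sources used here. Symbols and coordinates are from GENCODE M21 and matched 46488 of 47069 identifiers.

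Expected counts were rounded, scaled by TMM and filtered with filterByExpr by group (edgeR 4.0.16, R 4.3.3), leaving 12037 genes, and taken as log2(CPM + 1). Intervals are exact Poisson and cover counting error only, since reads carry no molecular identifiers. No 2 libraries of a group agreed within sampling noise, and the computation was tested on simulated data. The members and gene lists were chosen with earlier results of these data known. Named are all members, the largest difference each way of each list with at least 20 CPM, and the 2 nearest genes by r, 1 of which is not reported here; the full PRC2 list, Kdm5d relatives, transcript names and the deposited lengths were added after values were seen. Prmt1 was not matched by symbol and has no value. Alternatives were other scalings (library totals, DESeq2 1.42.0), TPM, pseudocounts of 0.1 and 5, no filter, each oocyte left out, title prefixes, and 6wk metaphase II oocytes without the shared prefix. Other steps used pandas 2.3.3, SciPy 1.17.1, NumPy 2.4.6 and Matplotlib 3.10.9 under Python 3.11.15.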

Additional observations from a re-analysis of the deposited data

How the results depend on the processing

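Of 90 member differences (10 genes in 9 comparisons), 25 passed 2-fold and 13 of these did so in every alternative. Those 13 include Ehmt1 and Setdb1 in all 4 maturation comparisons. A change of sign occurred for 2: Kdm1b in MSC-IVM-MII against IVM-MII at 6wk (−0.14 without IVM-MII 6wk oocyte 2, and up to 1.95 without another oocyte) and Kdm1a between ages in IVM-MII oocytes (0.066 without IVM-MII 12m oocyte 2, and down to −2.46 without another). The cause was not tested. The number of members past 2-fold in MSC-IVM-MII against IVM-MII at 6wk, 1 in the text, was 0 with DESeq2 size factors, TPM or a pseudocount of 5, 2 without the 6wk metaphase II oocytes of the shared prefix, and 1 to 4 with 1 oocyte left out. At 12m, 1 became 2 with TPM, 3 with a pseudocount of 0.1 or within prefixes, and 1 to 3 with 1 left out, while the members' median ran from −0.19 to 0.46. For age, 1 in GV oocytes became 0 with TPM or a pseudocount of 5 and 0 to 6 with 1 left out. The 2 in IVM-MII oocytes became 1 with TPM or a pseudocount of 5, 5 with a pseudocount of 0.1 and 1 to 4 with 1 left out. The 2 in MSC-IVM-MII oocytes became 1 with library totals, DESeq2 size factors or a pseudocount of 5 and 2 to 4 with 1 left out. Counts for maturation, 4, 5, 4 and 5, were within 1.5 times of these in every scaling and were 6, 5, 6 and 6 within prefixes, though not always for the same genes. With 1 oocyte left out their medians ran from 0.09 to 1.22 (IVM-MII 6wk), 0.01 to 0.84 (12m), 0.21 to 1.27 (MSC-IVM-MII 6wk) and 0.18 to 0.93 (12m). TPM moved the median of all genes by up to 0.29 and DESeq2 size factors by up to −0.16. No analysis paired by replicate number was possible because the labels give none. The values within title prefixes, whose meaning is not stated, are the only blocked ones. At 12m those for maturation leave out GV oocyte 1 and rest on 1 GV oocyte per prefix, oocytes 2 and 3.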

Other observations

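Kdm5d, a lysine 4 demethylase gene on the Y chromosome and on the demethylase list, had 17263 counts over the 18 oocytes, from 262 to 552 CPM in GV and from 11.9 to 234 CPM in metaphase II oocytes. At 6wk its mean was 4.04-fold lower after maturation without co-culture (100.2 ± 92.2 against 405 ± 141 CPM), and the oocytes did not overlap. Its X-linked paralog Kdm5c had 792 counts, with a median of 2.43 CPM in GV and 8.77 CPM in metaphase II oocytes. The Y-linked genes Uty, Ddx3y and Eif2s3y had 3, 0 and 0 counts in all. Oocytes come from female mice, which carry no Y chromosome, so the counts under Kdm5d cannot be read as transcripts of that gene. Their fall with maturation is therefore not a result about Kdm5d. How reads were shared between Kdm5d and its paralogs is not given in the sources used here, and the origin of these counts was not tested.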
